A study of Mus musculus with 6 samples.

Results

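The GABA-A receptor subunit genes Gabra2, Gabra3, Gabra4, Gabra5, Gabrb1, Gabrb2 and Gabrd were examined in the forebrain of mice labelled as exposed to water avoidance stress (WAS) and of control mice. These 7 genes were chosen by name from the 23282 entries of the deposited count tables, which hold 19 genes of the GABA-A receptor family in all, and each of the 7 had 1 entry. The mice of both groups were adult C57BL/6J males. WAS confined 3 mice for 1 h to a small platform with water around it, whereas for 3 controls the surround was dry. RNA came from 1 hemisphere per mouse, taken right after the session and trimmed of cerebellum and olfactory bulb, and was read by QuantSeq 3′ mRNA-Seq, which sequences the end of polyadenylated transcripts. A read therefore comes from the end of a transcript whatever its length, and levels are given as CPM, the count scaled to a library total of 1000000, without division by length.

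GABA-A receptors are pentameric chloride channels that open when they bind GABA, the main inhibitory transmitter of the forebrain. Most synaptic receptors combine α, β and γ subunits. Receptors in which the δ subunit takes the place of γ lie outside synapses, give a steady inhibitory current at low GABA, and are known for their sensitivity to neurosteroids, which are made during stress. In the forebrain δ is mostly paired with the α4 subunit, above all in thalamus, striatum and dentate gyrus, while the α5 subunit is best known from the hippocampus.

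Groups and directions follow the sample labels. Inside the tables, the heading of the count column begins with WS in control libraries and with WC in WAS libraries, and what these letters stand for is not defined in the methods. The study's own list of changed genes runs in the direction opposite to the one the labels give, so every direction below holds for the libraries as labelled and would be the reverse with exchanged labels. The libraries held between 9248520 and 10502029 counts. WAS replicates 1 and 3 stood apart from the other 4 libraries in the levels of genes that mark brain regions. The summed level of 8 striatal genes was 156 and 330 CPM in WAS replicates 1 and 3, 1685 CPM in WAS replicate 2 and between 848 and 1177 CPM in the controls. Conversely, 8 thalamic genes summed to 497 and 401 CPM in WAS replicates 1 and 3 against 128 CPM in WAS replicate 2 and between 107 and 137 CPM in the controls. The 8 hippocampal genes summed to 161 and 128 CPM in the same 2 libraries against 47.7 CPM in WAS replicate 2 and between 46.1 and 72.3 CPM in the controls. The 6 midbrain genes summed to 69.7 and 114 CPM against 29.2 CPM in WAS replicate 2 and between 20.9 and 22.1 CPM in the controls. Of 5 cerebellar genes, the α6 subunit gene Gabra6 had at most 1 count and Fat2 at most 2 counts in any library, while Cbln3 had 6 to 10, Car8 137 to 174 and Pcp2 191 to 252 counts. The results on Gabra4, Gabra5 and Gabrd rest on WAS replicates 1 and 3 and are given with and without them.

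To show where transcription of these genes starts, windows of 300 bases, from 250 bases before to 50 bases after a RefSeq gene start (build GRCm38.p6), were taken for 6 of the 7 genes. They gave 10 windows in all. For Gabrd there was none. The windows of Gabra4 and Gabra5 are shown because these 2 genes varied most between libraries among the 6, and the second window of Gabrb1 because it holds one of the motifs searched. Capitals mark a motif.
Gabra4, minus strand, chr5:71658259-71658558: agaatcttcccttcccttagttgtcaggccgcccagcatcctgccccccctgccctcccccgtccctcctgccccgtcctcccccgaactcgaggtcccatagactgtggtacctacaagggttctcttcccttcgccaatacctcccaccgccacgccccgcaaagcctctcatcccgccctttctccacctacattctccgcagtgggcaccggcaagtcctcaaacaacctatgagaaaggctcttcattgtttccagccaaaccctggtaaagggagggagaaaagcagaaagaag
Gabra5, minus strand, chr7:57510010-57510309: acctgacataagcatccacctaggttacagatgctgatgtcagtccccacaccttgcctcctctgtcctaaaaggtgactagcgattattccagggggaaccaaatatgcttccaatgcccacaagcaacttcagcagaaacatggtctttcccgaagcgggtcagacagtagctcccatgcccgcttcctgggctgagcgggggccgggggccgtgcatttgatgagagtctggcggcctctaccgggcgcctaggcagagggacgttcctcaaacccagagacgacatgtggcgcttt
Gabrb1, plus strand, chr5:71699682-71699981: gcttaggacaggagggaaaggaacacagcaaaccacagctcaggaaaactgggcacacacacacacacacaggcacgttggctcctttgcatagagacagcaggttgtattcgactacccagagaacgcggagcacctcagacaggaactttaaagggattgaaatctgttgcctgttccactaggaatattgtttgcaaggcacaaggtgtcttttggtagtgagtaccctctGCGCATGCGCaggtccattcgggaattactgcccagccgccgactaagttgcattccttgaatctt
The capitals in the Gabrb1 window are the palindromic consensus site of the transcription factor NRF1, which 0.971% of the 32851 promoter windows hold. The letters TATAAA, those of the TATA box, occurred in 3 of the 10 windows, 1 of Gabrb2 and both of Gabra3, and in 13.6% of all windows. The Gabra3 windows overlap and hold the same match, so the 3 windows hold 2 different matches. In Gabrb2 the letters run in the direction of the gene, while in Gabra3 they lie on the strand opposite to the gene. The palindromic glucocorticoid response element, the cAMP response element TGACGTCA, the E-box CACGTG and the GC box GGGGCGGGG occurred in 0 of the 10 windows, against 0.00913%, 1.79%, 7.15% and 11.4% of all windows. Both strands were searched. No window of these genes held more than 1 kind of motif, so none overlapped.

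Gabra4 and Gabrb1 are neighbours on chromosome 5 that point away from each other. In GENCODE M21 Gabra4 spans bases 71569749 to 71658308 on the minus strand and Gabrb1 spans bases 71658113 to 72149037 on the plus strand, so that their 5′ ends overlap. Gabra2 lies on the same chromosome from 70957597 to 71095849 on the minus strand. Gabra5 lies on chromosome 7 from 57407672 to 57510059 on the minus strand, Gabrb2 on chromosome 11 from 42419757 to 42629028 on the plus strand, Gabra3 on chromosome X from 72432681 to 72656848 on the minus strand and Gabrd on chromosome 4 from 155384980 to 155398112 on the minus strand. The last 500 bases of the longest transcript of each of the 7 genes shared no stretch of 50 bases with a transcript of another gene, on either strand. The end of Gabra5 lies over the gene Gm9962 on the other strand, which had between 28 and 46 counts in a library against 415 to 854 for Gabra5. Whether the counting used strand is not given in the sources used here, so reads of this pair are uncertain.

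Among the 7 genes, Gabrb2, which encodes the β2 subunit, had the highest CPM, between 332 and 390 CPM over the 6 libraries. Gabra4 followed with 127 to 192 CPM, Gabra3 with 112 to 121 CPM, Gabrb1 with 83.7 to 101 CPM and Gabra5 with 43.8 to 84.8 CPM. Gabrd lay between 14.1 and 36.8 CPM and Gabra2 between 21.4 and 30.2 CPM. Neighbours in this order did not overlap except Gabrb1 with Gabra5 and Gabrd with Gabra2. Gabrd was above Gabra2 in the 3 controls and WAS replicate 2, and below it in WAS replicates 1 and 3. The 7 genes together took between 44.6% and 48.1% of the counts of the 19 family genes. Their summed level was 821 ± 34.5 CPM (SD, n = 3) with the WAS label and 848 ± 44.3 CPM (SD, n = 3) with the control label, a difference within the spread of the libraries (exact two-sided permutation test, p = 0.6, where the smallest p that 3 against 3 allow is 0.1).

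**Figure D1:**
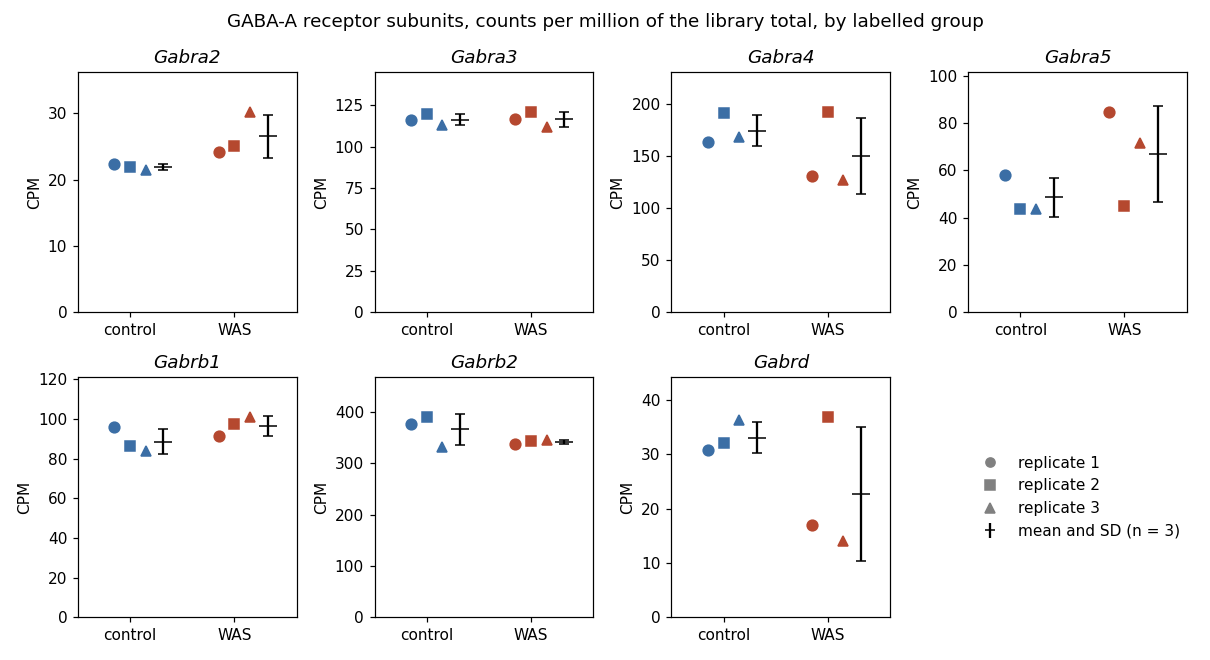
Each panel plots the CPM of 1 gene (vertical axis, from 0) in the 3 control and 3 WAS libraries, with the marker shape giving the replicate number and the bar the mean and SD. For Gabra4, Gabra5 and Gabrd, WAS replicates 1 and 3 lie away from WAS replicate 2, which lies at or near the controls, and for Gabra2 the groups do not overlap.

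All 7 genes passed the filter on low counts and were among the 15239 genes compared between the groups by the quasi-likelihood test of edgeR. Adjusted p-values are those of Benjamini and Hochberg over all genes tested. Of the 7, 0 had an adjusted p under 0.05, as had 0% of all genes tested. At an unadjusted p under 0.05, 1 of the 7 was called, Gabra5, against 7.66% of all genes tested, and by DESeq2 it was again Gabra5 alone, against 5.82% of all genes. With TMM scaling and with limma, 0 of the 7 were called, against 7.24% and 5.70% of all genes. After adjustment DESeq2 called 31 of all genes tested and 0 of the 7. No gene of the 7 passed a fold change of 1.5 together with an unadjusted p under 0.05, which 2.59% of all genes did. Complete separation of the 3 WAS from the 3 control libraries was seen for 1 of the 7, Gabra2, against 12.2% of all genes, 8.42% with WAS above and 3.76% with WAS below. The median log2 fold change of the 7 genes was 0.0015, beside 0.038 over all genes tested.

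Gabrd encodes the δ subunit of extrasynaptic receptors. WAS replicates 1, 2 and 3 held 171, 340 and 141 of its counts, and control replicates 1, 2 and 3 held 323, 332 and 361, which is 17, 36.8 and 14.1 CPM against 30.8, 32 and 36.2 CPM. WAS replicates 1 and 3 were thus low, and WAS replicate 2 was above each control. The mean was 22.6 ± 12.3 CPM (SD, n = 3) with the WAS label and 33 ± 2.84 CPM (SD, n = 3) with the control label, and the log2 fold change was -0.55 (standard error, SE, 0.28, edgeR adjusted p = 0.689). The SD of the libraries labelled WAS was 54.5% of their mean, where counting alone would give 6%. Without WAS replicate 2, the log2 fold change was -1.08 (SE 0.155, edgeR adjusted p = 0.00113). Without WAS replicates 1 and 3, which leaves 1 library labelled WAS that is assumed to vary like the controls, it was 0.16 (SE 0.158, edgeR adjusted p = 0.945).

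Gabra4 encodes α4, the usual partner of δ in the forebrain, and receptors with α4 do not respond to classical benzodiazepines. Its levels were 131, 192 and 127 CPM in WAS replicates 1, 2 and 3 and 163, 191 and 168 CPM in control replicates 1, 2 and 3. The same 2 libraries were below the other 4, and WAS replicate 2 was level with control replicate 2. The group means were 150 ± 36.2 CPM (SD, n = 3) for WAS and 174 ± 14.9 CPM (SD, n = 3) for control, a log2 fold change of -0.22 (SE 0.144, edgeR adjusted p = 0.781). It was -0.43 without WAS replicate 2 (SE 0.0949, edgeR adjusted p = 0.0204) and 0.14 without WAS replicates 1 and 3 (SE 0.115, edgeR adjusted p = 0.93). The ratio of Gabra4 to Gabrd counts was 7.73 and 8.96 in WAS replicates 1 and 3 against 5.21 in WAS replicate 2 and 5.3, 5.97 and 4.66 in the controls.

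Gabra5 encodes α5, a subunit of extrasynaptic receptors in hippocampal pyramidal cells. WAS replicates 1, 2 and 3 held 854, 415 and 715 of its counts, and the controls held 611, 455 and 437, which is 84.8, 44.9 and 71.6 CPM against 58.2, 43.8 and 43.8 CPM. WAS replicates 1 and 3 were the highest of the 6 libraries, control replicate 1 was next, and WAS replicate 2 was close to the other controls. The means were 67.1 ± 20.4 CPM (SD, n = 3) and 48.6 ± 8.29 CPM (SD, n = 3). The log2 fold change was 0.47 (SE 0.199, edgeR adjusted p = 0.633). Its unadjusted p by edgeR was 0.0387. The fold change was 0.69 without WAS replicate 2 (SE 0.134, edgeR adjusted p = 0.0105) and -0.12 without WAS replicates 1 and 3 (SE 0.169, edgeR adjusted p = 0.973). The call at an unadjusted p under 0.05 was lost with TMM scaling in edgeR (unadjusted p = 0.0504) and with limma (unadjusted p = 0.194). The call was also lost when WAS replicate 1, WAS replicate 3, control replicate 2 or control replicate 3 was left out, with values of 0.26, 0.42, 0.40 and 0.40 and edgeR p of 0.181, 0.102, 0.131 and 0.127.

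Gabra4, Gabra5 and Gabrd therefore shared a division of the libraries, with WAS replicates 1 and 3 on one side and the other 4 on the other. This division, which was noticed in the data, held for 3 of the 7 genes and for 24.0% of all genes tested, with Gabra4 and Gabrd in the direction of 9.62% of all genes (lower in WAS replicates 1 and 3) and Gabra5 in that of 14.3% (higher). Without WAS replicate 2, these 3 of the 7 genes passed an adjusted p of 0.05 by edgeR, as did 3.26% of all genes tested. Of all genes, 1.80% passed with higher and 1.46% with lower levels under WAS. This omission takes out the 1 WAS library that lay on the side of the controls, and the 3 genes were grouped by that same division. The fit is therefore no separate support for it. The levels of the regional markers moved with those of Gabra4, Gabra5 and Gabrd. Of the 8 striatal markers, 7 were lower in WAS replicates 1 and 3 than in each of the other 4 libraries, and the eighth, Drd2, had at most 1 count in any library. WAS replicate 2 had the highest striatal sum of the 6 libraries and also the highest Gabra4 and Gabrd. The sums of the cortical and neuronal markers were also lower in WAS replicates 1 and 3 than in each of the other 4 libraries. The 8 cortical markers summed to 426 and 397 CPM against 456 to 573 CPM, with 4 of the 8 below the other 4 libraries, and the 5 neuronal markers to 4530 and 4690 CPM against 5132 to 5818 CPM, with 2 of the 5 below. The summed thalamic markers, from another site named above for α4 and δ, ran the opposite way to these genes. Most of that sum came from Tcf7l2 and Slc17a6, with 234 and 173 CPM and 170 and 134 CPM in WAS replicates 1 and 3 against at most 42 and 38.3 CPM in the other 4, while Ramp3 and Synpo2 did not separate these libraries. Of the genes listed for hippocampus that mark the dentate gyrus, C1ql2 and Prox1 were higher in WAS replicates 1 and 3 than in the other 4, and Dsp and Tdo2 overlapped with them. In the same direction as Gabra5, 5 of the 8 hippocampal markers, 6 of the 8 thalamic markers and 5 midbrain markers were higher in WAS replicates 1 and 3 than in each of the other 4. The remaining midbrain marker, Foxa1, had 1 and 4 counts there and 0 elsewhere, too few to compare. The hippocampal sum was highest among the controls in control replicate 1, at 72.3 CPM against 46.1 and 52.6 CPM, and so was Gabra5. The midbrain gene En1 had 124 and 157 counts in WAS replicates 1 and 3, 1 count in WAS replicate 2 and 0 in each control. The part of these marker differences in the values of Gabra4, Gabra5 and Gabrd was not tested. Fewer cells of a type in a sample and less RNA of a gene per cell cannot be told apart in such bulk RNA.

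**Figure D2:**
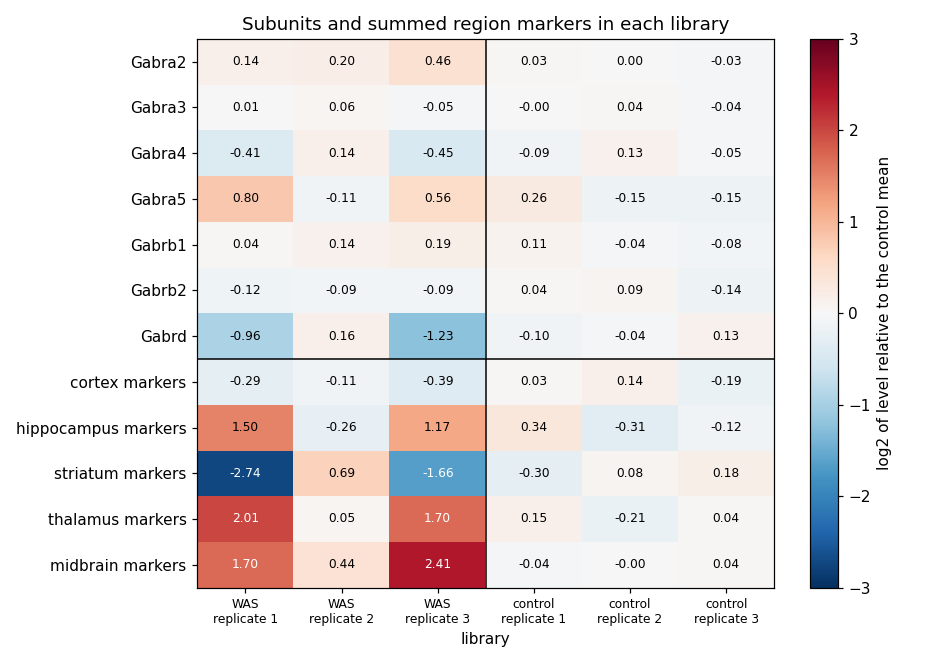
Each cell gives the log2 of a level in 1 library relative to the mean of the 3 controls, for the 7 subunit genes (upper rows, CPM) and for the summed CPM of 5 lists of regional marker genes (lower rows), with libraries as columns. Gabrd stands at -0.96 and -1.23 and the striatal markers at -2.74 and -1.66 in WAS replicates 1 and 3, where Gabra5 stands at 0.8 and 0.56 and the hippocampal markers at 1.5 and 1.17.

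Gabra2 encodes α2, the subunit through which benzodiazepines are best known to lower anxiety. It had 24.2, 25.1 and 30.2 CPM in WAS replicates 1, 2 and 3 and 22.4, 21.9 and 21.4 CPM in the controls. Each library labelled WAS lay above each control, the only such gene of the 7. The means were 26.5 ± 3.25 CPM (SD, n = 3) and 21.9 ± 0.465 CPM (SD, n = 3). The log2 fold change of Gabra2 was 0.28 (SE 0.128, edgeR adjusted p = 0.658) and kept its sign in every alternative fit run, with 0.31 without WAS replicate 2 and 0.20 without WAS replicates 1 and 3. WAS replicate 3 contributed most, and without it the value was 0.17 (edgeR adjusted p = 0.979). Without WAS replicate 1 the value was 0.34 (edgeR unadjusted p = 0.0293, adjusted p = 0.688). In that fit Gabra2 was the only 1 of the 7 genes with an unadjusted p under 0.05, against 6.94% of all genes. The counts of Gabra2 lay between 214 and 302, for which counting alone gives a CV of 6.42%, and the controls varied by 2.13%.

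Gabra3, Gabrb1 and Gabrb2 differed little. Gabra3 encodes α3, found in deep cortical layers, the thalamic reticular nucleus and monoaminergic neurons. It had 117, 121 and 112 CPM in the libraries labelled WAS and 116, 120 and 113 CPM in the controls, with a log2 fold change of 0.0015 (SE 0.081, edgeR adjusted p = 0.999), the sign of which turned with the scaling of the counts. The groups overlapped fully, and the CV of 3.87% and 3.05% in the 2 groups was close to the 2.93% that counting alone gives.

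Gabrb1, which encodes β1, had 91.3, 97.6 and 101 CPM in the libraries labelled WAS and 95.9, 86.5 and 83.7 CPM in the controls. The log2 fold change was 0.12 (SE 0.09, edgeR adjusted p = 0.816), and it was 0.08 without control replicate 3 and 0.18 without control replicate 1. Gabrb1 thus did not share the low levels of its head-to-head neighbour Gabra4 in WAS replicates 1 and 3. Gabrb2 had 337, 344 and 345 CPM in the libraries labelled WAS and 376, 390 and 332 CPM in the controls. Control replicate 3 was the lowest of the 6 libraries and the other controls were the highest. The log2 fold change of Gabrb2 was -0.10 (SE 0.0842, edgeR adjusted p = 0.852), and it ran from -0.05 without control replicate 2 to -0.16 without control replicate 3.

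**Figure D3:**
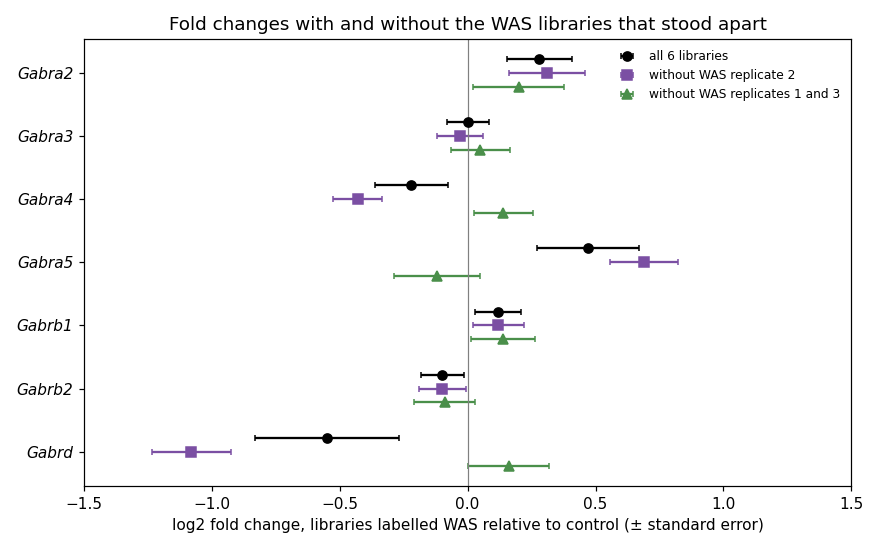
The log2 fold change of each gene in the libraries labelled WAS relative to those labelled control (horizontal axis, bars are standard errors from edgeR) is plotted for all 6 libraries, without WAS replicate 2 and without WAS replicates 1 and 3. Gabrd moves from -0.55 to -1.08 and 0.16, Gabra4 from -0.22 to -0.43 and 0.14 and Gabra5 from 0.47 to 0.69 and -0.12, while Gabra2, Gabrb1 and Gabrb2 keep their sign.

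The make-up of the receptor transcripts was compared as shares within a library, which do not depend on its total. Gabra4 made up 16.4% and 15.8% of the counts of the 7 genes in WAS replicates 1 and 3, 22.3% in WAS replicate 2 and 18.9%, 21.6% and 21.1% in the controls. Gabra5 made up 10.6% and 8.95% in WAS replicates 1 and 3, 5.21% in WAS replicate 2 and 6.75%, 4.95% and 5.48% in the controls. The ratio of Gabra5 to Gabra4 counts was accordingly 0.646 and 0.566 in WAS replicates 1 and 3 against 0.234 in WAS replicate 2 and between 0.229 and 0.357 in the controls. Summed over Gabra4, Gabra5 and Gabrd, the genes best known from extrasynaptic receptors, the share was 29.1% ± 2.6 (SD, n = 3) in the libraries labelled WAS and 30.2% ± 0.925 (SD, n = 3) in those labelled control (exact two-sided permutation test, p = 0.6). In this sum the high Gabra5 and the low Gabra4 and Gabrd of WAS replicates 1 and 3 partly offset each other.

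**Figure D4:**
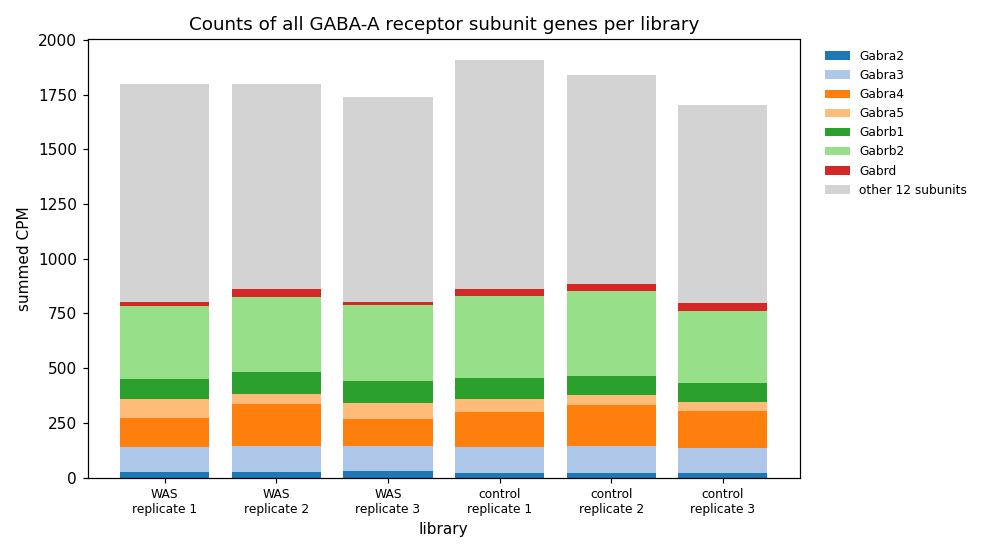
Stacked bars give the CPM of the GABA-A receptor subunit genes in each of the 6 libraries (vertical axis, summed CPM from 0), with the 7 genes in colour and the other 12 of the family together in grey. The total lies between 1703 and 1910 CPM, and Gabrb2 takes the largest part of the 7 genes in each library.

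Of the 12 other genes of the family, 7 passed the filter on low counts. Of these, 0 had an unadjusted p under 0.05 by edgeR, against 7.66% of all genes tested. The median log2 fold change of the tested subunits was 0.07, beside 0.038 over all genes. Gabrg1, which encodes γ1, had 26.7 ± 4.55 CPM (SD, n = 3) with the WAS label and 23.1 ± 4.18 CPM (SD, n = 3) with the control label. The groups overlapped, and the log2 fold change of Gabrg1 was 0.21. Gabre, Gabrp and Gabrr3 had 0 counts in each of the 6 libraries.

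Of 25 genes for the scaffold and trafficking of GABA-A receptors, 25 were tested, 2 were higher and 1 was lower under WAS at an unadjusted p under 0.05, and 0 passed an adjusted p of 0.05 by edgeR. The median log2 fold change was 0.06, beside 0.038 over all genes. The background at an unadjusted p under 0.05 was 5.45% of all genes for higher and 2.21% for lower. Hap1, which takes part in the transport of the receptors to the membrane, had 65.9, 46.8 and 71.3 CPM in WAS replicates 1, 2 and 3 and 22.1, 26.9 and 50.4 CPM in the controls, with a log2 fold change of 0.89 (SE 0.259, edgeR adjusted p = 0.52). Mdga1, which binds neuroligins, had 30.8 and 30.3 CPM in WAS replicates 1 and 3, 16.3 CPM in WAS replicate 2 and between 12.2 and 21 CPM in the controls. Plcl2, a phospholipase C-like protein that binds the β subunits, had 35.5, 46.5 and 40.6 CPM against 50.9, 48.7 and 51.8 CPM. Its log2 fold change was -0.31 (edgeR adjusted p = 0.582). The groups did not overlap for Plcl2, with WAS below, as for 3.76% of all genes tested. They did not overlap for Lhfpl4, Gabarapl2, Clptm1 and Zdhhc3 of this list either, with WAS above, as for 8.42% of all genes. The neurexin gene Nrxn2 had the most counts of this list, with a log2 fold change of 0.03.

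Among 14 genes of GABA supply and clearance, chloride transport and GABA-B receptors, 14 were tested, 3 were higher and 0 were lower at an unadjusted p under 0.05, and 0 passed an adjusted p of 0.05 by edgeR. Of all genes tested, 5.45% were higher and 2.21% were lower at that unadjusted threshold. The median log2 fold change of the list was 0.12, beside 0.038 over all genes. Slc6a11, which encodes the GABA transporter GAT-3 of astrocytes, had 255, 112 and 221 CPM in WAS replicates 1, 2 and 3 and 99.8, 83.7 and 110 CPM in the controls, a log2 fold change of 1.00 (SE 0.234, edgeR adjusted p = 0.482). WAS replicates 1 and 3 were again apart, and WAS replicate 2 lay just above the highest control. Slc6a13, the GABA transporter GAT-2 of meninges and vessels, had 5.17, 5.62 and 5.91 CPM against 2.76, 2.22 and 4.91 CPM. Abat, the enzyme that breaks down GABA, had a log2 fold change of 0.23 (edgeR adjusted p = 0.619). Gabbr1 and Slc12a5, a subunit of the GABA-B receptor and the chloride exporter KCC2, had the most counts of this list and log2 fold changes of 0.07 and 0.01.

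Of 11 genes listed under neurosteroid synthesis, 7 were tested and 0 had an unadjusted p under 0.05 by edgeR, against 7.66% of all genes tested. Akr1c14, with between 0 and 10 counts in a library, was among those not tested. The median log2 fold change of those tested was -0.08, beside 0.038 over all genes. The 2 genes with the most counts were Hsd17b10, at 27.3 ± 2.22 CPM (SD, n = 3) with the WAS label and 28.9 ± 2.41 CPM (SD, n = 3) with the control label, and Srd5a3, at 16 ± 5.46 CPM (SD, n = 3) and 14.4 ± 3.94 CPM (SD, n = 3). Srd5a1, the main 5α-reductase of the brain, had between 43 and 63 counts in a library.

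Among the 7 genes, the levels over the 6 libraries ran most alike for Gabra4 and Gabrd, with a Pearson r of 0.93 on log2(CPM + 1), and most opposite for Gabra4 and Gabra5, with -0.92. Gabra5 and Gabrd had -0.90. These values describe 6 libraries of which WAS replicates 1 and 3 stand apart. Gabrb1 and its neighbour Gabra4 had -0.37. Of 9403 other genes with a mean of at least 100 counts, those most like Gabrd were Cdc5l (r = 0.995 over 6 libraries), Kcnj4 (0.993) and Il34 (0.991), and those most like Gabra4 were Ppp1r9a (0.995), Tfb1m (0.994) and Arpp21 (0.991). Those most like Gabra5 were Zfp36l1 (0.996), Sde2 (0.995) and Fbxo2 (0.994). The r does not give the size of a change. Cdc5l lay between 78.3 and 84.7 CPM and Sde2 between 48 and 55.3 CPM over the 6 libraries. Arpp21 ranked below Ppp1r9a and Tfb1m for Gabra4. It had 434, 859 and 452 CPM in WAS replicates 1, 2 and 3 and 673, 815 and 693 CPM in the controls. An r above 0.9 was found for 1.96% of the 9403 genes with Gabrd, 2.5% with Gabra4 and 2.83% with Gabra5, and for 0.734% to 1.15% with the other 4 genes. The closest genes were Ran, Tada1 and Slc7a11 for Gabra2, Crocc, Hrasls and Trim11 for Gabra3, Papolg, Dazap2 and Olig1 for Gabrb1 and Dlgap1, Bhlhe40 and Atp2a2 for Gabrb2, with r between 0.981 and 0.995.

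The other marker lists were read as a check of the tissue. The neuronal sum did not overlap between the groups, at 5132 CPM or less under WAS and 5247 CPM or more in the controls. Of its genes only Syt1 separated the groups, at 2413 CPM or less under WAS and 2583 CPM or more in the controls. Snap25, Rbfox3, Tubb3 and Eno2 overlapped. The sums overlapped between the groups for the astrocytic, oligodendrocytic, microglial and endothelial lists. Of the 5 astrocytic markers, 2 were higher in WAS replicates 1 and 3 than in each of the other 4 libraries. Aqp4 had 111 and 105 CPM there against at most 87.2 CPM, and Gfap had 89 and 92.3 CPM against at most 60.2 CPM. The choroid plexus genes summed to 41.9 CPM in WAS replicate 1 and 16.2 CPM in control replicate 2 and to between 917 and 1239 CPM in the other 4 libraries, a division that none of the 7 subunit genes shared. The hypothalamic sum lay between 2.02 and 50.6 CPM, the cerebellar sum between 34 and 41 CPM and that of the olfactory bulb between 4.91 and 9.12 CPM. Otp, a hypothalamic marker, had 0 counts throughout.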

How the data were processed

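A forebrain hemisphere of each of 6 mice, 3 labelled WAS and 3 labelled control, gave 1 library each. QuantSeq 3′ reads were aligned by the authors with Bowtie2, and they deposited read counts per gene symbol from unique and multiple alignments, made with Bedtools coverage. The build is mm10 per the labels, and the annotation is not given in the sources used here. The deposited counts are raw whole numbers, taken before the quantile normalization that the authors describe. Of the 23282 entries, 79 carry a symbol that occurs more than once, and these were kept apart.

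CPM were computed on the library total. The 15239 genes whose log2(quantile-normalized count + 1) averaged 2 or more were tested by edgeR 4.0.16 in R 4.3.3 (glmQLFit and glmQLFTest, library totals, no block), with Benjamini-Hochberg adjustment over all genes tested. The standard error (SE) of a log2 fold change was its size over the root of the F statistic. Alternatives were TMM scaling, DESeq2 1.42.0, limma 3.58.1 on quantile-normalized log2 counts, no filter or edgeR's filterByExpr for low counts, a replicate block, and omission of 1 library at a time. The fit without WAS replicates 1 and 3 was chosen after seeing the data. Omission of WAS replicate 2 was 1 of the planned omissions, and it was singled out after its result was seen. Without molecular identifiers, the counting CV covers counting error only.

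The 7 genes, the gene lists and the tests were chosen with earlier results of these data known. The genes named are the 7, the other family members (some of these and 1 gene of the lists are not reported here), from each GABA or neurosteroid list those with an unadjusted p under 0.05 and the 2 with the most counts, and for each of the 7 genes the 3 with the highest Pearson r. Fat2, Cbln3, Car8, Pcp2, C1ql2, Prox1, Dsp, Tdo2, Tcf7l2, Slc17a6, Ramp3, Synpo2, Foxa1, Drd2, En1, Otp, Gm9962 and Srd5a1 were named after their values were seen. So were Lhfpl4, Gabarapl2, Clptm1, Zdhhc3, Akr1c14, Syt1, Snap25, Rbfox3, Tubb3, Eno2, Aqp4 and Gfap. Promoter windows are from RefSeq (GRCm38.p6) and gene positions from GENCODE M21, both of the build of the labels.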

Additional observations from a re-analysis of the deposited data

How the results depend on the processing

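The signs of Gabra2, Gabrb1 and Gabrb2 held in all 13 alternatives, and 0 of these 3 genes passed an adjusted p of 0.05 in any of them. Gabra3 turned to -0.04 with TMM scaling and with DESeq2 and to -0.02 with limma, and lay between -0.03 and 0.03 with each library left out. With each library left out, the log2 fold change ran from -0.43 to -0.11 for Gabra4, from 0.26 to 0.69 for Gabra5 and from -1.08 to -0.30 for Gabrd, the largest sizes being without WAS replicate 2. Without WAS replicates 1 and 3 these turned to 0.14, -0.12 and 0.16, and the difference in the share of Gabra4, Gabra5 and Gabrd turned from -1.05 to 1.58 percentage points. That difference ran from -2.36 to 0.243 with single libraries left out, and it was above 0 without WAS replicate 3.

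The number of the 7 genes with an unadjusted p under 0.05 was 1, but 0 with TMM scaling (7.24% of all genes), 0 with limma (5.70%), 2 without a filter on low counts (Gabra5 and Gabrd, 7.25%), 0 without WAS replicates 1 and 3 (5.33%), and between 0 and 3 with single libraries left out (4.30% to 14.1%), 3 being without WAS replicate 2 (14.1%). Over all genes, 0 passed an adjusted p of 0.05 by edgeR (1168 had an unadjusted p under 0.05), against 31 with DESeq2, 1 without WAS replicates 1 and 3, and between 0 and 497 with single libraries left out, 497 being without WAS replicate 2. Genes past an unadjusted p of 0.05 and a fold change of 1.5 numbered 395, and between 284 and 844 with single libraries left out.

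Samples of the 2 groups share replicate numbers, but the deviations of same-numbered libraries correlated at only 0.0878, 0.115 and 0.102, so the numbers were not taken as pairs, although each library correlated best with its own number. With the replicate block, 42 genes passed an adjusted p of 0.05 and an unadjusted p under 0.05 was reached by 3 of the 7 genes (Gabra4, Gabra5 and Gabrd) and 9.73% of all genes. TMM factors lay between 0.976 and 1.01, and scaling to the library total put the median of all genes at 0.038. The cause of these changes was not tested. For the 7 genes counting alone gives a CV of 1.68% to 6.42%.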

Other observations

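Gabrq, which encodes the θ subunit of hypothalamic and brainstem neurons, had 23, 20 and 40 counts in WAS replicates 1, 2 and 3 and 5, 13 and 31 counts in control replicates 1, 2 and 3, with a log2 fold change of 0.81 (SE 0.561, edgeR adjusted p = 0.797). The ρ subunits, known from the retina, were seen in some libraries only. Gabrr2 had 20, 0 and 9 counts with the WAS label and 13, 3 and 0 counts with the control label. Gabrr1 had 5 counts in WAS replicate 1 and 7 in control replicate 1 and 0 in the other 4 libraries. Gabrg3 had between 3 and 11 counts in a library, where counting alone gives a CV of 38.7%.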
